A study of Rattus norvegicus with 4 samples.

Results

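The genes described here are 10 genes of the unfolded protein response of the endoplasmic reticulum, chosen by their symbols: the chaperone and folding genes Hspa5, Hsp90b1, Pdia4, Pdia6, Calr, Sdf2l1, Creld2, Manf and Dnajb9, and the transcription factor gene Xbp1. A probe was matched through its RefSeq accession for 9 of them, each by 1 probe, among 16575 measured genes; Manf was not analysed here. RNA came from NR8383 cells, a line of alveolar macrophages started from rat lung lavage and used after 20 passages. All 4 cultures had been incubated for 4 h with COOH-functionalized carbon nanotubes (the material NRCWE042) at 6.8 cm2 of nanotube surface per cm2. The design names 4 biological replicates per condition and an unexposed control, which was not analysed here. With 1 group, no value below is an effect of the nanotubes and no test between conditions was made.

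Proteins that enter the endoplasmic reticulum are folded by lumenal chaperones. When unfolded proteins build up, the sensors IRE1 (gene Ern1), ATF6 and PERK (gene Eif2ak3) signal to the nucleus; IRE1 splices the Xbp1 mRNA into a form that encodes an active factor, and cleaved ATF6 and spliced XBP1 raise the transcription of the chaperone genes. Macrophages depend on this compartment for secreted cytokines and lysosomal enzymes. The array signal sums all transcripts that a probe binds, and no probe sequence was used here, so spliced and unspliced Xbp1 were not told apart.

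The element through which ATF6 and XBP1 act on such promoters is known as the endoplasmic reticulum stress element, whose letters are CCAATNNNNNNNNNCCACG: a part bound by NF-Y, a spacer of 9 bases and a part bound by ATF6 or XBP1. It was searched on both strands in the 250 bases upstream of the start site in the RefSeq promoter table (GRCr8), which held windows for 8 of the 10 genes; those of Pdia6 and Manf were not analysed here. The element was present in 5 of these 8, beside 22 of 33469 windows in the whole table (0.0657%). These shares were not tested. The sites are shown because the windows of these 5 genes share the element. Each is read in the direction of the element with 5 bases on either side, and capitals mark the fixed letters.
Hspa5: gttcaCCAATcggaggcctCCACGacggg
Hsp90b1, far site: caaacCCAATcgaaaggagCCACGcttcg
Hsp90b1, near site: acccaCCAATcgtgcctcaCCACGcactc
Creld2: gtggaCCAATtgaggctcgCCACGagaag
Xbp1: acaggCCAATcgcagacggCCACGaccct
Calr: ctgggCCAATcagggtcgaCCACGcgttg

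The 19 bases of the element lay at chr3:38452973-38452991 for Hspa5 (gene on the plus strand), 43 to 25 bases before the start. In Hsp90b1 (minus strand), the far site lay at chr7:23012451-23012469 and the near site, on the opposite strand to the gene, at chr7:23012347-23012365. The sites of Creld2 (chr7:121789239-121789257) and Calr (chr19:40213135-40213153) were also on the opposite strand to their genes, both of which lie on the plus strand. The site of Xbp1 lay on its own strand, at chr14:84604558-84604576. The annotated genes Creld2 and Dnajb9 reach further upstream than the start site in the table, so their windows lie inside the annotated gene. The windows of Sdf2l1, Pdia4 and Dnajb9 held no match to the full element. None of the 8 held the second form of the element, ATTGGNCCACG (0.0418% of all windows), or the UPR element TGACGTGG (0.520%). Only these exact letters were searched, and near matches to them were not counted. The first part alone, CCAAT, was in all 8 windows, beside 34.0% of all windows, and the second part alone, CCACG, in 7, beside 27.2%. Both shorter motifs also lie inside the full element.

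Among the other genes of the pathway with a window, the full element was found in Canx, Dnajc3 and Ero1b of 36 folding genes and in Derl3 of 18 degradation genes, and in 0 of 17 sensor or factor genes and 0 of 17 entry and retention genes. Of the 16 measured genes in the whole table that held it, 13 were detected on all 4 arrays, a share of 81.2%. The share was 45.6% of the 13549 measured genes with a window. The 16 include the 5 genes of this set with the element, all of them detected. They also include Canx and Dnajc3, detected, and Ero1b and Derl3, not detected on all 4 arrays. The difference between the shares was not tested. A match is a run of letters and not a shown binding site.

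**Figure D1:**
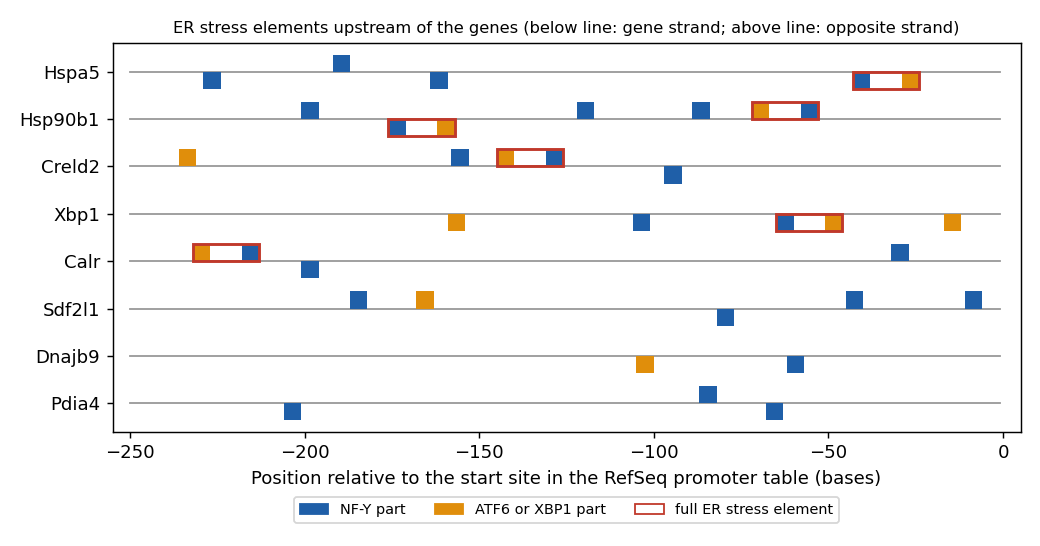
Matches in the 250 bases upstream of each start site, with position in bases on the horizontal axis and 1 line per gene; blue boxes are CCAAT, orange boxes CCACG, red frames the full element, boxes below a line lie on the gene strand and boxes above it on the opposite strand. Full elements appear 6 times, in Hspa5, Hsp90b1 (2 sites), Creld2, Xbp1 and Calr, and not in the windows of Sdf2l1, Dnajb9 and Pdia4.

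The upstream sequences of 4 genes are printed whole: Hspa5 and Hsp90b1, whose products are the most studied chaperones of this compartment, and Calr and Sdf2l1, whose levels ran closely together on the arrays (below) although only Calr held the element. Each is read 5′ to 3′ on the gene strand and ends at the base before the start site, with the fixed letters of the element in capitals.
Hspa5, chr3:38452766-38453015, plus strand: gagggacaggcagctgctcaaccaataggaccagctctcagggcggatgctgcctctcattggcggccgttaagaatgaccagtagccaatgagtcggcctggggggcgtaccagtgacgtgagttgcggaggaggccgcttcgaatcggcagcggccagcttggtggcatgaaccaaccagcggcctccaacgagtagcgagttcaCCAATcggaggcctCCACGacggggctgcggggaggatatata
Hsp90b1, chr7:23012294-23012543, minus strand: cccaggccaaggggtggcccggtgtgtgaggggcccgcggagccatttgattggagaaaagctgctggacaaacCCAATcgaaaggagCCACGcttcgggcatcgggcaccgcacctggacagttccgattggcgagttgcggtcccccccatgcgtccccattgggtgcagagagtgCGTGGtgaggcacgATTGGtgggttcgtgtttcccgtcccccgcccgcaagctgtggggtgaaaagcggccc
Calr, chr19:40213117-40213366, plus strand: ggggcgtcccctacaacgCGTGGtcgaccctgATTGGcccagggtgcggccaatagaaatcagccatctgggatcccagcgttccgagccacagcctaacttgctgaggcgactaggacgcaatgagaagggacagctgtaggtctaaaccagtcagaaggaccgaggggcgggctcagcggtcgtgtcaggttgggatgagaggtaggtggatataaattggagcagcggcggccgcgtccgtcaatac
Sdf2l1, chr11:97376628-97376877, plus strand: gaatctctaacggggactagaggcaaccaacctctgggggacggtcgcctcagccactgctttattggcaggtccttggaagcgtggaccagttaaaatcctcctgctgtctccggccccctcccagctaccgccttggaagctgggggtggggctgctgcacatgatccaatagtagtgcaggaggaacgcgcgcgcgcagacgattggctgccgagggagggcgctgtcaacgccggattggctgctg

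On the arrays, all 9 measured genes were detected, meaning that the scanner software marked the probe as well above background on over 50% of its spots on each of the 4 arrays. Over all measured genes the share was 44.4% (7362 of 16575). The arrays differed in brightness: the 75th percentile of the processed signal was 734, 757, 595 and 307 on replicates 1 to 4, while the signal of the spike-in RNAs on replicates 2 to 4 differed by -0.13, 0.19 and -0.08 log2 units from replicate 1. All levels below are log2 of the processed signal minus that array's 75th percentile, with SD over n = 4 arrays, each from 1 culture. All 4 arrays shared 1 slide and 1 scan day. Of the macrophage markers, 9 of 11 measured were detected (Adgre1 and Marco on 0 arrays). Of markers of other cell types, 3 of 7 were detected for pancreatic acinar cells, 1 of 8 for lung epithelium, 1 of 6 for fibroblasts, 1 of 5 for T and NK cells and 1 of 4 for neutrophils. Their part in the values below was not tested, and fewer cells of a type cannot be told apart from less RNA per cell.

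Hspa5 encodes BiP, the HSP70 chaperone that binds nascent chains and holds the stress sensors inactive. It was spotted 10 times on each array. Its signal was 4470, 5036, 3151 and 1535 on replicates 1 to 4, and its level was 5.13, 5.27, 5.00 and 4.97. Replicate 2 read highest and replicate 4 lowest, with a mean of 5.09 ± 0.14 and 1.23-fold between the highest and the lowest culture. The repeated spots of 1 array had an SD of 0.03 to 0.06, so the spots of replicate 2 (5.21 to 5.31) lay above all those of replicate 3 (4.90 to 5.07) and of replicate 4 (4.89 to 5.05). Replicate 2 stayed highest and replicate 4 lowest with median, spike-in and quantile scaling and with normexp, a model-based background correction.

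Dnajb9 encodes ERdj4, a J-domain partner that feeds substrates to BiP and represses IRE1. Its signal was 176, 178, 98.6 and 39.8 on replicates 1 to 4. The lowest spot signal marked well above background was 21.7, 24.6, 23.2 and 20.8 on the same arrays, so Dnajb9 came nearest to that limit on replicate 4. Its level was 0.46, 0.44, 0.00 and -0.30 (0.15 ± 0.37). Replicates 1 and 2 read nearly alike and above replicates 3 and 4, also with median, spike-in and quantile scaling and with normexp.

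Sdf2l1 encodes a lumenal partner of J-domain proteins that keeps clients soluble. Its signal was 17028, 17895, 17534 and 10066 and its level 7.06, 7.10, 7.48 and 7.68 (7.33 ± 0.30). Its 2 spots were close, with signals of 16384 and 17697 on replicate 1, 17357 and 18450 on replicate 2, 17608 and 17461 on replicate 3, and 10085 and 10047 on replicate 4. Calr encodes calreticulin, a lectin chaperone and calcium store of the lumen. Its level was 5.80, 5.91, 6.29 and 6.52 (6.13 ± 0.33). For both genes replicates 3 and 4 read above replicates 1 and 2 on this scale. With spike-in scaling both read lower on replicates 3 and 4 than on replicates 1 and 2. Replicate 4 was then lowest (-0.49 for Calr and -0.52 for Sdf2l1, from the own mean). With normexp background correction replicate 4 read -0.04 and -0.06.

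Hsp90b1 encodes GRP94, the HSP90 paralogue of the lumen. Its level was 3.21, 3.47, 1.99 and 2.88 (2.89 ± 0.64), with replicate 3 lowest. It was the only measured member with an SD above 0.5, which 11.6% of all detected genes had. It was also the only one that, on any array, lay further than 1 log2 unit from the other 3 arrays' median, which 8.9% of detected genes did. Its probe has 2 spots, and these read differently. The spot near the edge, in row 176 and column 7 of a grid of 384 rows and 164 columns, read 3.11, 3.37, 3.32 and 3.27. The spot near the centre, in row 177 and column 81, read 3.30, 3.57, 0.66 and 2.50. The edge spot was thus 6.31 times as bright as the central one on replicate 3 and 1.69 times on replicate 4, against 0.877 and 0.871 times on replicates 1 and 2.

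The central spot of Hsp90b1 lay in a low-signal area of the third replicate's array. There the median difference from the other arrays, over 21 neighbouring spots within 5 rows and 5 columns, was -2.89 log2 units, close to the -2.72 of the spot itself. The area, where this local median was below -0.5, held 2161 of 58717 sample spots, and 1 of the 29 spots of these genes. The same cut marked 764 spots on replicate 4, with 0 of the 29, and 2 and 9 spots on replicates 1 and 2. Around the central Hsp90b1 spot on replicate 4 the local median was -0.39 over 16 spots and the spot's own difference -0.92. From its edge spot alone, Hsp90b1 had a level of 3.26 ± 0.11, with replicate 1 lowest and replicate 2 highest. With only the spots in the area on replicate 3 left out, its SD was 0.25. The choice of the edge spot was made after its values were seen.

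**Figure D2:**
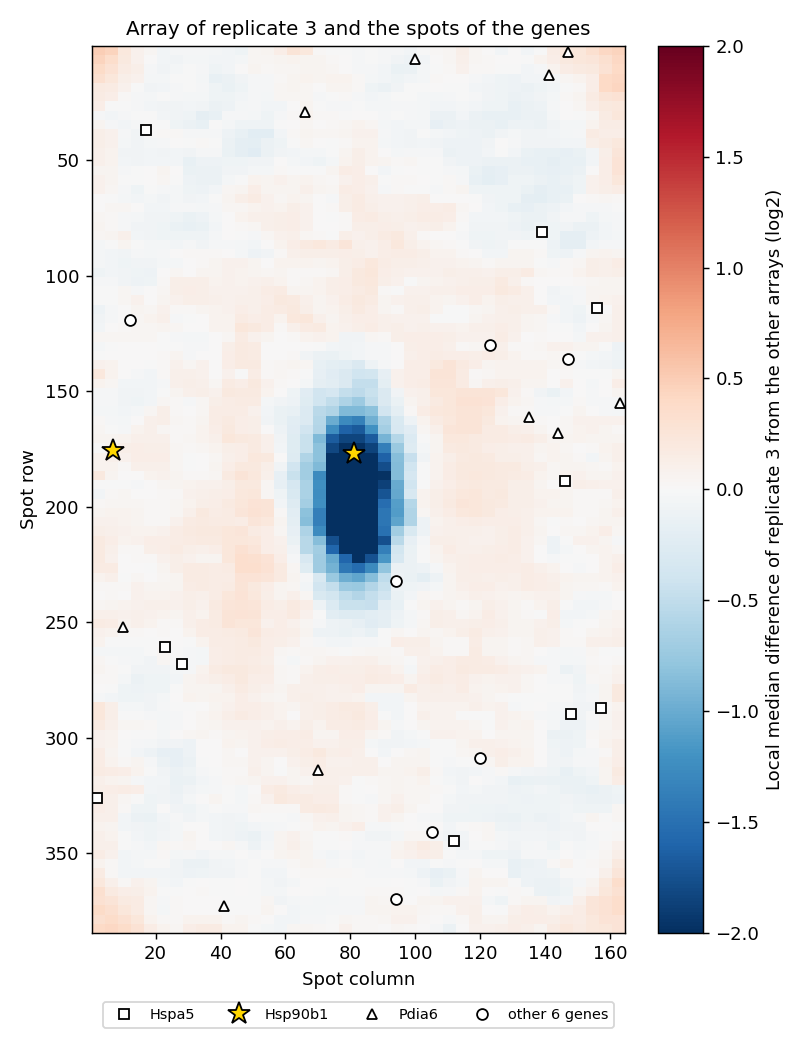
Map of the array of replicate 3 by spot column and spot row, coloured by the local median difference of replicate 3 from the other 3 arrays in log2 units, with the 29 spots of the 9 genes drawn on it. The central area of low signal holds 1 of the 2 Hsp90b1 spots (row 177, column 81), while the other lies at column 7, and no spot of the other 8 genes falls inside it.

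The protein disulphide isomerase genes Pdia4 (ERp72) and Pdia6 (P5) form and rearrange disulphide bonds in folding clients. Pdia4 read 1.68, 1.64, 1.65 and 1.71 (1.67 ± 0.03). Its 4 cultures lay within 0.08 log2 units, and only 1.03% of detected genes had a smaller SD. This rests on 1 spot per array and on this scale: its SD was 0.64 with spike-in scaling and 0.13 with normexp. Pdia6, spotted 10 times, read 5.43, 5.54, 5.37 and 5.28 (5.41 ± 0.11), and its spots on 1 array had an SD of 0.04 to 0.06. As with Hspa5, replicate 2 read highest and replicate 4 lowest. Creld2, which encodes a secreted and lumenal protein with disulphide isomerase activity, read 2.44, 2.50, 2.51 and 2.29 (2.44 ± 0.10), the lowest on replicate 4.

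Xbp1 read 3.46, 3.56, 3.50 and 3.67 (3.55 ± 0.09), from a single spot with signals of 1409, 1541, 1113 and 622. The 4 cultures spanned 0.20 log2 units, or 1.15-fold, and 10.8% of detected genes had a smaller SD. With normexp correction its SD was 0.37, and replicates 3 and 4 read -0.28 and -0.36 from its own mean. With spike-in scaling its SD was 0.60, and replicate 4 read lowest, at -0.76 from its own mean.

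**Figure D3:**
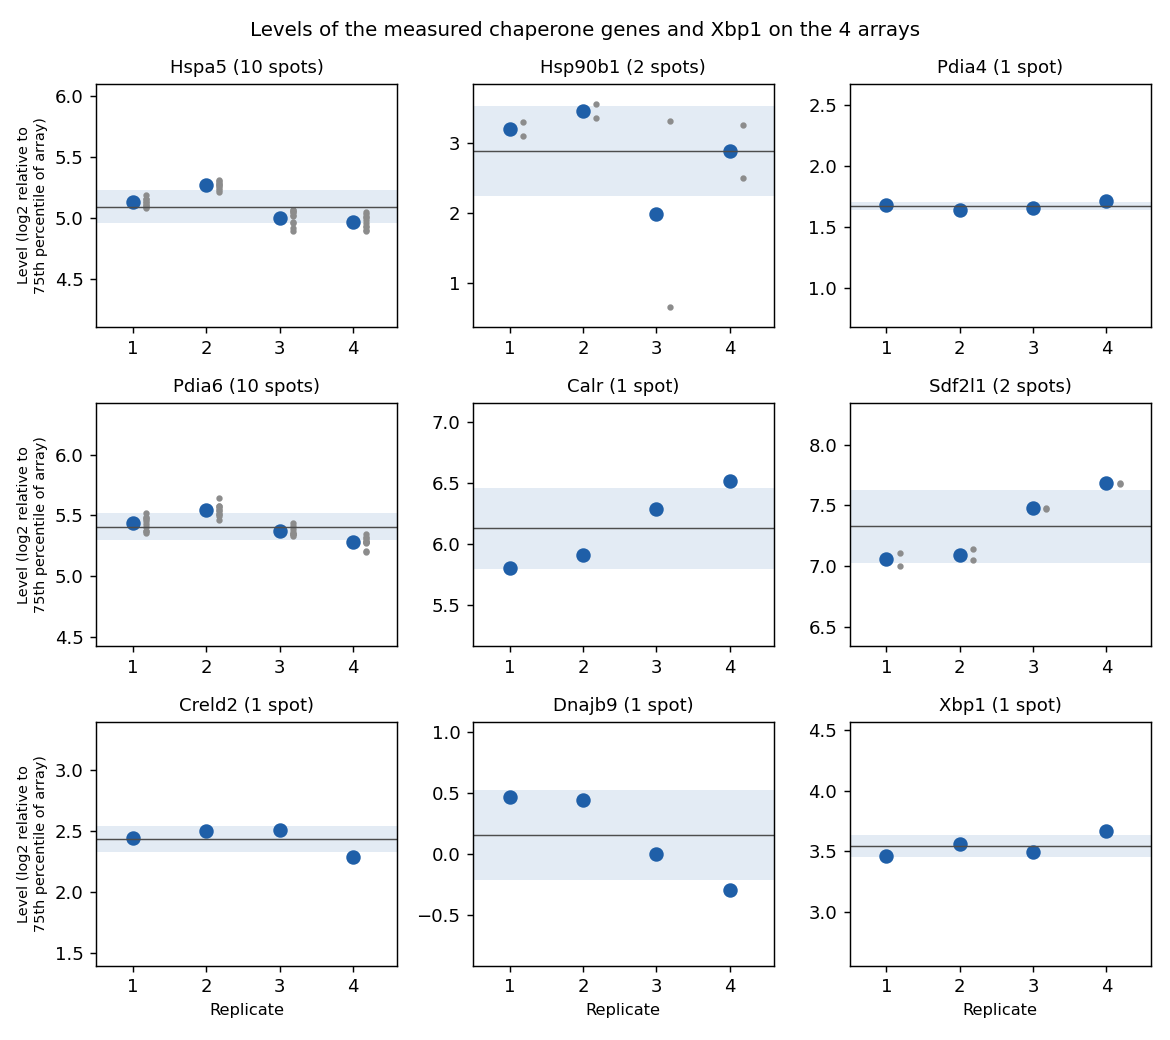
Level on each of the 4 arrays (blue points; log2 of the signal after subtracting the 75th percentile; each panel has its own vertical range), with single spots in grey where a probe has more than 1, the mean over arrays as a line and 1 SD on either side as a band. Calr and Sdf2l1 read higher on replicates 3 and 4, and Dnajb9 lower. The Hsp90b1 spots separate on replicates 3 and 4 (0.66 and 3.32 on replicate 3). With spike-in scaling, Calr and Sdf2l1 read lower on replicates 3 and 4 than on replicates 1 and 2. With normexp, only their replicate 3 read above both replicates 1 and 2.

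Set against their own means on this scale, the 9 genes did not read high or low together, but with spike-in scaling all 9 read above their own mean on replicates 1 and 2 and all 9 below it on replicate 4. Their median deviation was 0.01, 0.07, -0.04 and -0.00 log2 units on replicates 1 to 4, where all detected genes had medians of -0.07, -0.07, 0.06 and 0.10. Of the 9 genes, 6, 6, 3 and 4 lay above their own mean on replicates 1 to 4. The same held for 38.7%, 41.9%, 61.9% and 59.6% of detected genes. These counts were 9, 9, 2 and 0 with spike-in scaling, where the median deviations of all detected genes were 0.36, 0.52, -0.08 and -0.78. With normexp the counts were 6, 7, 6 and 0, where those medians were 0.01, 0.05, 0.09 and -0.13. The counts were 6, 6, 3 and 4 with quantile normalization and 6, 7, 3 and 3 with median scaling. The share of all detected genes above their own mean is not given under these alternatives. The deviations of a gene on 4 arrays sum to 0 and are not independent.

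Some pairs of genes in this set had close profiles on this scale. How often pairs of other detected genes lie as close was not analysed here. Likeness was measured as the Euclidean distance between 2 centred profiles over the 4 arrays, without a test. Of 36 pairs, Hspa5 with Pdia6 and Calr with Sdf2l1 were the closest, both at 0.07, against a median of 0.60. Calr minus Sdf2l1 spanned 0.09 log2 units across the 4 arrays, and Hspa5 minus Pdia6 also 0.09. The medians of all detected genes, -0.07, -0.07, 0.06 and 0.10, had the same signs as Calr and Sdf2l1. By contrast, the deviation of Calr minus that of Dnajb9 was -0.64, -0.51, 0.31 and 0.84, and that of Calr minus Hspa5 was -0.37, -0.40, 0.25 and 0.51. Such a difference between genes on 1 array is the same under any scaling that subtracts 1 value per array. With normexp correction, Calr minus Dnajb9 read -0.34, -0.18, 0.31 and 0.22. Of the genes in these pairs, Calr and Hspa5 held the promoter element in the window searched and Sdf2l1 and Dnajb9 did not, and the window of Pdia6 was not analysed here.

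**Figure D4:**
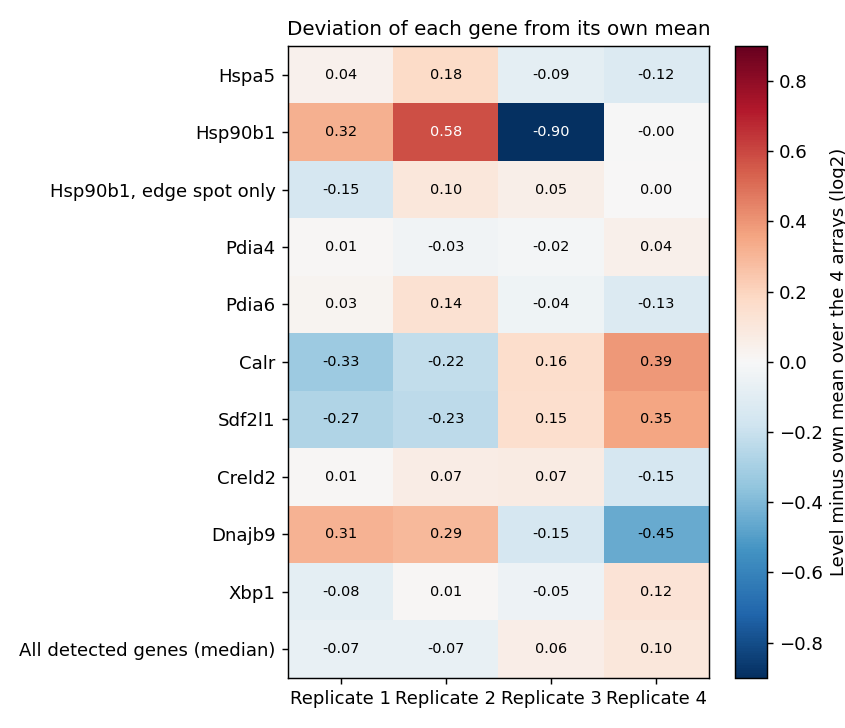
Each gene's level minus its own mean over the 4 arrays in log2 units (red higher, blue lower, values printed), with Hsp90b1 also from its edge spot alone and the median over all detected genes in the last line. Calr and Sdf2l1 share 1 pattern and Dnajb9 has the opposite signs, while Pdia4, Creld2 and Xbp1 differ from their means by at most 0.15. With spike-in scaling, Calr and Sdf2l1 read lower on replicates 3 and 4 than on replicates 1 and 2. With normexp, their replicate 4 lay below their own mean.

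On this scale, 5 of the 9 genes varied less between cultures than the median detected gene, and 4 varied more. The median SD of the 9 genes was 0.14, against 0.25 over all detected genes. Hspa5, Pdia4, Pdia6, Creld2 and Xbp1 had SDs of 0.03 to 0.14, below that median, and Sdf2l1, Calr, Dnajb9 and Hsp90b1 lay above it. With Hsp90b1 taken from its edge spot, the median SD was 0.11. The order turned with scaling to the spike-ins, which gave a median SD of 0.75 for the 9 genes and 0.60 for all detected genes, and with normexp, which gave 0.25 and 0.23. Quantile normalization gave 0.20 and 0.24. The median SD of all detected genes was exceeded by 7 of the 9 genes with spike-in scaling, 5 with normexp and 2 with quantile normalization.

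**Figure D5:**
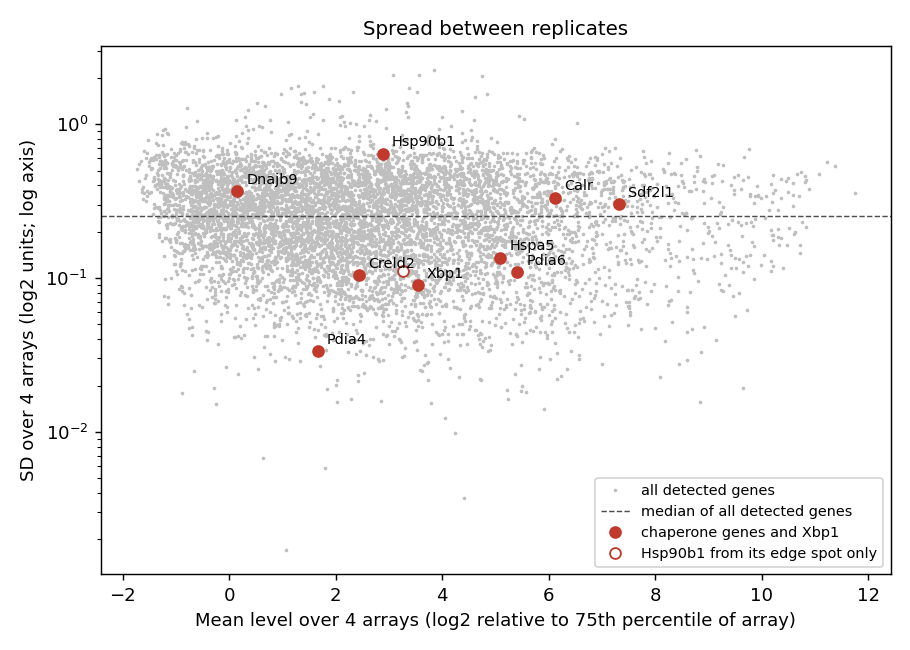
SD over the 4 arrays (log2 units, log axis) against mean level for all detected genes (grey) and the 9 genes (red), with the median SD of all detected genes, 0.25, as a dashed line. Hspa5, Pdia6, Creld2, Xbp1 and Pdia4 lie below the line, and the open circle is Hsp90b1 from its edge spot (0.11).

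By the same distance, the detected genes outside the set most like its median profile, among 7352 compared over 4 arrays, were Hnrnpab, Clybl, Clic1, Prorsd1 and Adgrg6, at 0.02 to 0.03. Those most like Xbp1 were Ephx1, Orai2, Tcea1, Cpped1 and Ndufaf6, at 0.03. These targets are nearly flat profiles on this scale, so likeness here means levels that hardly differed between cultures on it.

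The rest of the pathway was mostly detected as well. In 4 lists of other genes, 80 of 96 measured genes (83.3%) were detected on all 4 arrays, beside 44.4% of all measured genes. These were 28 of 37 folding genes, 19 of 21 degradation genes, 15 of 20 sensor and factor genes and all 18 genes of entry and retention. The difference between the shares was not tested. As for the sensors upstream of Xbp1, Ern1 (IRE1) was well above background on 0 arrays, as were its epithelial paralogue Ern2, the gene of the ATF6-cleaving protease Mbtps2, and Creb3l3, and Nfyb was detected on 2 arrays. Mbtps2 and Nfyb have 2 probes each, counted as detected where either was, and the other 3 have 1. Such readings are limits of these probes, not a measured absence. Atf6 was detected at 2.09 ± 0.11, Eif2ak3 at 0.54 ± 0.07 and Atf4, the factor translated downstream of PERK, at 7.99 ± 0.05. Ddit3, which encodes CHOP, read 5.85, 5.84, 2.54 and 5.17. Mbtps1 read 2.88, 2.91, 1.18 and 2.79, and the spots of both lay in the low-signal area described for Hsp90b1.

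Direct partners of the 9 genes gave both patterns seen among them. Hyou1, a large chaperone that exchanges nucleotide on BiP, read 3.24, 3.24, 3.75 and 3.96. Sil1, another exchange factor, read 4.40, 4.26, 4.97 and 5.43. Both were higher on replicates 3 and 4, like Calr, but with spike-in scaling replicate 4 read lowest, at -0.47 from the own mean for Hyou1 and -0.22 for Sil1. Canx, the membrane-bound counterpart of calreticulin, went the other way at 4.56, 4.56, 4.09 and 3.99, as did Pdia3, the isomerase that works with calreticulin and calnexin, at 3.08, 3.14, 2.82 and 2.63. The J-domain gene Dnajc3, like Dnajb9, read lower on replicates 3 and 4 (3.23, 3.22, 2.71 and 2.46), and Dnajb11 read 3.64 ± 0.19. For Canx, Pdia3 and Dnajc3, replicates 3 and 4 read below replicates 1 and 2 under each of the scalings and with normexp. P4hb, the founding isomerase of the family, was nearly level at 5.63 ± 0.06, and Ero1a, the oxidase that recharges it, read 2.62 ± 0.07. Paralogues of the set were detected too: Sdf2 at 5.87 ± 0.06, Creld1 at 3.08 ± 0.34, and Cdnf, the paralogue of Manf, at 0.65 ± 0.29. Folding genes well above background on 0 arrays were Pdia2, Pdia5, Ero1b, Fkbp14, Uggt1 and Clgn, while Fkbp7 and Cnpy4 were detected on 2 arrays and Serpinh1 on 1. The 3 detected folding genes with the largest SD were Sil1 (0.54), Cnpy3 (0.53) and Mogs (0.46).

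Among degradation genes, which return misfolded proteins to the cytosol, Herpud1 read 4.64, 4.66, 5.22 and 5.38 (replicate 4 at -0.48 from the own mean with spike-in scaling), Sel1l 0.09, 0.03, -0.22 and -0.49, Syvn1 2.83 ± 0.33 and Edem1 5.40 ± 0.08. Derl3 was detected on 3 arrays and Erlec1, whose probe lay in the area of low signal, on 2. Ufd1 (SD 1.05) also lay in that area, and Ube2g2 had an SD of 0.42. Of the receptors that return lumenal chaperones to the endoplasmic reticulum, Kdelr2 read 1.09 ± 0.12, and Kdelr1 2.36, 2.47, 3.04 and 3.20 (replicate 4 at -0.45 with spike-in scaling). The widest SDs in the entry and retention list, 1.13 for Spcs1 and 1.11 for Srpra, belonged to probes with a spot in the area of low signal, and Kdelr1 followed with 0.41. Creb3l1, a related membrane-bound factor gene, read 3.60, 3.61, 3.80 and 4.70, and its probe too had a spot in that area.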

How the data were processed

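The authors deposited linear intensity per spot of 1-colour Cy3 arrays. Per the file headers and the submitters' processing notes, the scanner images were quantified with Agilent Feature Extraction 11.0.1.1, whose processed signal is background-corrected and detrended within each array, and not normalized between arrays; the headers name an older rat build. Marks of the software (well above background, outlier) are other deposited values. Per the labels, labelling used 100 ng of RNA (integrity number over 7.5).

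Here log2 was taken, spots marked non-uniform or population outlier were left out, repeat spots were combined by their mean, and each array's own 75th percentile (45598 sample probes) was subtracted. No sample spot was saturated (0 per array). Probes were named by accession in the RefSeq table of GRCr8 (21102 named, 24496 not). A gene with several probes took its brightest. Arrays give no read depth; their number limits the precision. The genes and lists were chosen with earlier results of these data known, and no test between conditions or over a list was run; Dixon's outlier criterion was applied gene by gene. Named were all 10 genes, a roster of 24 pathway genes, list members not detected on all arrays or among the 3 widest SDs, and the 5 most alike profiles. Alternatives were other scalings, normexp (limma 3.58.1, offset 50), detection marks, spots kept or left out and arrays left out. Scripts (Python 3.11.15, numpy 2.4.6, pandas 2.3.3, R 4.3.3) were tested on simulated data. A further list of cell type markers is not reported here.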

Additional observations from a re-analysis of the deposited data

Results flagged for a closer look

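Of 48 detected genes named or listed above and examined for 1 array standing apart from the other 3, 1 was marked: Mbtps1, whose level on replicate 3 was 1.18, against 2.79 to 2.91 on the others. Its gap to the nearest array made up 0.93 of its range, above Dixon's critical value for 4 arrays. Chance marks about 1 gene in 20. Its spot falls within the low-signal area there, and its part in this value was not tested. Hspa5, Hsp90b1, Pdia4, Pdia6, Calr, Sdf2l1, Creld2, Dnajb9 and Xbp1 were not marked.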

How the results depend on the processing

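All 9 measured genes were detected under each of 8 other settings (a looser detection mark, detection on 3 of 4 arrays, every probe, the area of low signal left out, and each array left out). These settings could not have removed a gene. Each gene has 1 probe, already marked on all 4 arrays, and the edge spot of Hsp90b1 was marked on replicate 3. The other pathway genes detected were 85 with the looser mark and 80 to 81 with each array left out, against 80. Spike-in scaling moved the median deviations of the 9 genes to 0.44, 0.66, -0.17 and -0.88 on replicates 1 to 4 and their median SD to 0.75. It moved the medians of all detected genes to 0.36, 0.52, -0.08 and -0.78. Against replicate 1, the 75th percentile over sample probes on replicate 4 was -1.38 log2 units and the spike-in signal -0.08. The median SD was 0.20 with quantile normalization and 0.25 with normexp. With normexp the median deviation on replicate 4 was -0.36, against -0.13 for all detected genes, and the cause was not tested. With each array left out in turn, the median SD was 0.12 to 0.16. Of the comparisons of a single gene's level or SD with its value under an alternative, 34 moved beyond their limit and 182 did not. The 182 include many that could not move. Mean levels are the same under median and spike-in scaling, and averaging probes changes nothing where a gene has 1 probe. Leaving out the area or using the edge spot alters only Hsp90b1. The 182 are thus no measure of stability. With spike-in scaling, every SD except those of Calr and Sdf2l1 moved. Without replicate 3 the SD of Hsp90b1 was 0.29, without replicate 2 that of Hspa5 was 0.08, and without replicate 4 those of Pdia4, Creld2 and Xbp1 were 0.02, 0.04 and 0.05. No paired analysis was possible because the samples form 1 group. Taking Hsp90b1 from its edge spot was chosen after seeing the data and gave it an SD of 0.11. The signal of Dnajb9 on replicate 4 was 8.43 times the median of spots not well above background, against 32.3, 29.6 and 17.8 times on replicates 1 to 3. The part of background in its value there was not tested.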
